A study of Mus musculus with 16 samples.

Results

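The 10 genes described here are immediate early and activity-dependent genes, chosen by symbol from the deposited table of all genes: Fos, Fosb, Jun, Junb, Egr1, Egr3, Nr4a1, Arc, Ier2 and Dusp1. All 10 were listed among the 25905 genes of that table. RNA sequencing was performed on the right retinas of wild type male C57BL/6 mice, 8 in the flight group (labelled space flight) and 8 in the ground control group. The labels give an age of 10 weeks, which per the study's methods is the age at launch, so the mice were some weeks older when the eyes were collected. The flight mice lived aboard the International Space Station for that time and were returned alive, while ground control mice were kept on Earth in the same housing hardware on the same diet. The mice were euthanized with CO2 after the flight mice had been brought back to the laboratory, so every level below is that of a retina collected after landing and transport, or of its ground control.

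The measurement is the authors' mean normalized count, which is the number of reads per gene after division by a size factor for each library, averaged over all 16 libraries of both groups together. In the count tables, libraries are named only by codes that match no mouse or group in the labels. Values per mouse, their spread, the depth per library and the difference between flight and ground control are therefore not analysed here. Each level below is a pooled value without an error, and no order between neighbouring genes could be set against a spread between mice.

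Immediate early genes are transcribed within minutes of a stimulus without the need for new protein synthesis, and their transcripts are short-lived. Calcium entry and growth factor signals reach them through MAP kinases and calcium-dependent kinases, which act on the transcription factors CREB and SRF with its ELK partners. Light is a known inducer of Fos and Egr1 in inner retinal neurons, and handling of the animal and dissection of the tissue are known inducers in many tissues. Most members are transcription factors that switch on later genes.

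The retina label was first set against marker genes. Of 5 rod genes, 5 were at a mean normalized count of 10 or more, and Gnat1, the rod transducin subunit, stood at 66356 per kilobase of transcript. On the same scale Opn1sw of cones was at 1162, Prkca of rod bipolar cells at 504, Gad1 of amacrine cells at 720, Thy1 of ganglion cells at 997 and Glul of Müller glia at 6252. For tissue beside the retina, 4 lens genes were compared. Cryaa, a lens crystallin that the retina can also express, was at 709, Crygs at 184, Bfsp1 at 41.6 and Lim2 at 9.89. Whether lens tissue was carried along was not tested. Ttr and Rpe65 of the pigment epithelium were at 455 and 64.8, and the haemoglobin gene Hbb-b1 at 15.2. The 4 microglia and macrophage markers ran from 4.66 for Aif1 to 35.5 for C1qa, and endothelial markers with a length from 14.5 for Tek to 229 for Kdr. Which cells the immediate early transcripts came from was not tested.

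The 10 genes spanned a wide range of levels. Egr1 had the highest mean normalized count, at 1217, and Egr3 the lowest, at 5.83, a 209-fold range. Summed, the 10 genes had 2540 mean normalized counts, which is 0.0363% of the sum over all genes, and Egr1 made up 47.9% of that. A mean normalized count of 10 or more was reached by 12374 genes, among them 9 of the 10. Set against those genes, whose median was 174, the 10 genes lay at a median percentile of 43.2, with 5 above the median and 5 below.

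Levels of different genes were compared per kilobase of transcript, since a longer transcript gives more reads. Transcript lengths ran from 1522 bases for Ier2 to 3940 for Egr3. Per kilobase the order was Egr1, Nr4a1, Jun, Dusp1, Fos, Ier2, Junb, Fosb, Arc and Egr3. The widest steps between neighbours were 6.10-fold from Junb to Fosb, 3.51-fold from Arc to Egr3 and 3.13-fold from Egr1 to Nr4a1. Fosb stood 1.66-fold above Arc and Fos 1.57-fold above Ier2. Nr4a1 stood 1.07-fold above Jun, Jun 1.15-fold above Dusp1, Dusp1 1.22-fold above Fos, and Ier2 1.04-fold above Junb. The order of Jun and Nr4a1, and that of Junb and Ier2, was the opposite per gene. With the shortest annotated transcript of each gene as its length, Nr4a1 was above Egr1 and Dusp1 was above Jun. For Nr4a1 that length is only 344 bases, against 2477 for the transcript otherwise used. The step from Junb to Fosb was then 1.76-fold and that from Arc to Egr3 1.34-fold. Fosb, Arc and Egr3 were the 3 lowest genes with each choice of length and also per gene.

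**Figure D1:**
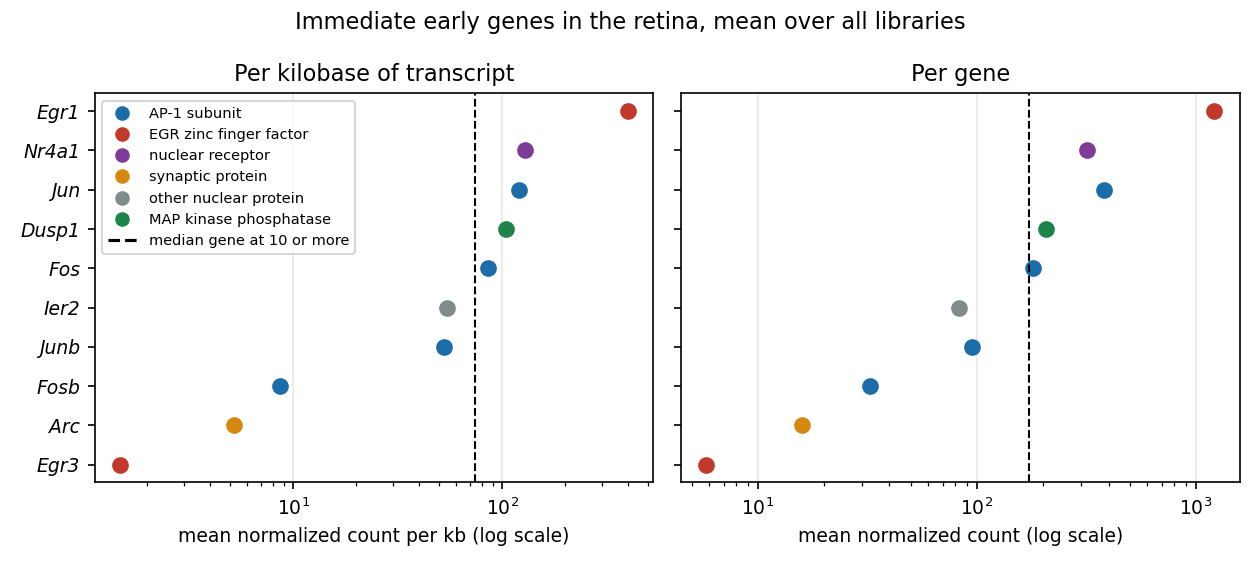
Mean normalized count over all libraries of the 10 genes, per kilobase of transcript (left) and per gene (right), on log axes. Each point is 1 gene coloured by its role, no error can be shown, and the dashed line is the median of genes at a mean normalized count of 10 or more (73.8 per kilobase and 174 per gene).

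Among the AP-1 subunits, Jun was the most abundant of the 4 members. FOS proteins bind DNA mainly as dimers with a JUN protein, while JUN proteins can also pair with each other. Jun had a mean normalized count of 383, or 120 per kilobase, higher than 64.9% of genes on the scale per kilobase. Junb, which often opposes Jun at shared targets, was at 95.1, or 52.6 per kilobase, so Jun exceeded it 2.29-fold per kilobase. Fos stood at 181, or 86.1 per kilobase, and was the AP-1 member next to the median gene. Fosb, whose truncated product ΔFosB is known for its long life in neurons, was at 32.6, or 8.61 per kilobase. Fos thus exceeded Fosb 10.0-fold per kilobase, 5.57-fold per gene, and 2.88-fold per kilobase of the shortest annotated transcripts.

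The other AP-1 genes put these values in context. Jund, the JUN gene that is expressed without stimulation in most tissues, stood at 489 per kilobase, above Egr1. Per gene the order was the opposite, with Jund at 816 and Egr1 at 1217. Over the 3 JUN genes, Jund contributed 73.9% and Jun 18.2% of the summed level per kilobase. Over the 4 FOS genes, Fos contributed 78.9%, or 62.5% with the shortest annotated transcripts. Fosl2 was at 12.7 per kilobase and Fosl1 at 1.71. The summed level per kilobase of the JUN genes was 6.07 times that of the FOS genes, or 4.81 times with the shortest annotated transcripts. Atf3, a stress-induced partner of JUN proteins, was at 20.3 per kilobase. Of the 7 further AP-1 subunits named, 7 were listed and 4 reached a mean normalized count of 10, with Mafk at 12.3 per kilobase and Maff and Batf below that minimum, at 4.47 and 0.207.

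The pair of EGR members had the highest and the lowest level of all. EGR proteins are zinc finger factors that bind GC-rich sites and are restrained by the NAB corepressors. Egr1 was at 1217, or 401 per kilobase, higher than 90.6% of genes per kilobase. Egr3, which is itself a target of earlier factors, was at 5.83, or 1.48 per kilobase, so Egr1 exceeded it 271-fold per kilobase, or 104-fold with the shortest annotated transcripts. Egr2 and Egr4 were below 10 as well, at 0.609 and 7.34 mean normalized counts. Egr1 made up 98.7% of the summed level per kilobase of the 4 EGR genes. The corepressor gene Nab1 stood at 129 per kilobase.

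Nr4a1 encodes an orphan nuclear receptor that is controlled mainly by its own transcription. Its mean normalized count was 318, or 128 per kilobase, the rank after Egr1. Its shortest annotated transcript has only 344 bases, against 2477 for the transcript used. With that short length Nr4a1 was at 923 per kilobase, above the 401 of Egr1. With the longest annotated transcripts Nr4a1 was at 124 and Egr1 at 271. Nr4a3, of the same family, was at 4.15 per kilobase. Klf9 and Klf6, zinc finger factors that also respond to stimulation or hormones, stood at 305 and 71.9 per kilobase. Of the 11 further EGR, NR4A and KLF genes, 7 reached a mean normalized count of 10.

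Dusp1 encodes a nuclear phosphatase that switches off MAP kinases and so ends the signal that induces it. Its mean normalized count was 208, or 105 per kilobase. Among the 7 dual-specificity phosphatases compared it had rank 3 per kilobase, after Dusp8 at 158 and Dusp4 at 108. Dusp14 followed at 87.9, Dusp5 at 54.1 and Dusp6 at 41.4, while Dusp2 had a mean normalized count of 0.380.

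Ier2, a small nuclear protein whose role is less well known, had a mean normalized count of 83.3, or 54.8 per kilobase. Among the further immediate early factors and regulators, 18 of 21 reached a mean normalized count of 10. Tob1 and Ier3 were the most abundant per kilobase, at 426 and 303, followed by the survival gene Mcl1 at 196. Npas4, a factor that in neurons responds to calcium entry and to few other stimuli, was at 8.03 per kilobase, close to Fosb.

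Arc encodes a synaptic protein that removes AMPA receptors from the membrane. Its mean normalized count was 15.9, or 5.19 per kilobase, higher than 3.99% of genes. Egr1 exceeded it 77.2-fold per kilobase. Of 16 names of other synaptic and secreted activity-dependent genes, 15 were listed. The remaining name, Cpg15, is another name of Nrn1, which is among the 15. A mean normalized count of 10 was reached by 13. Their median per kilobase, over the 13 with a length, was 136 against 70.4 for the 10 members. Scg2, a granin of secretory vesicles, was at 2135 per kilobase, Arl4d at 429 and Rheb at 250. Ptgs2, the inducible cyclooxygenase, was at 0.824 per kilobase.

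**Figure D2:**
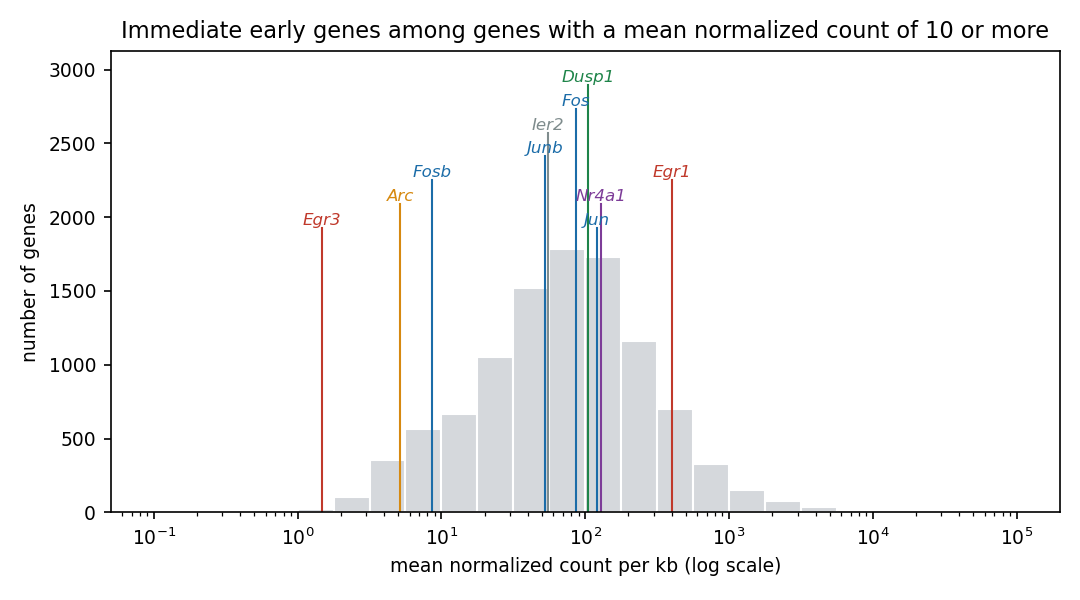
Number of genes by mean normalized count per kilobase (log axis) for the 10275 genes at a mean normalized count of 10 or more with a transcript length, with a coloured line at each of the 10 genes. Egr1 lies to the right of most genes, Fosb and Arc lie in the left tail, and Egr3, at 1.48, lies near the left end. Egr3 is not among the genes counted, since its mean normalized count of 5.83 is under 10.

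The median level of upstream genes was higher than that of the members. Of 25 kinases and constitutive transcription factors named, 22 reached a mean normalized count of 10, and the median per kilobase of the 18 with a length was 179, against 70.4 for the 10 members. Mef2d, a calcium-responsive factor, stood highest at 914 per kilobase, followed by the ERK1 gene Mapk3 at 320 and the coactivator gene Ep300 at 305. Srf, which binds the serum response element, was at 97.6 and its partner Elk4 at 284.

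**Figure D3:**
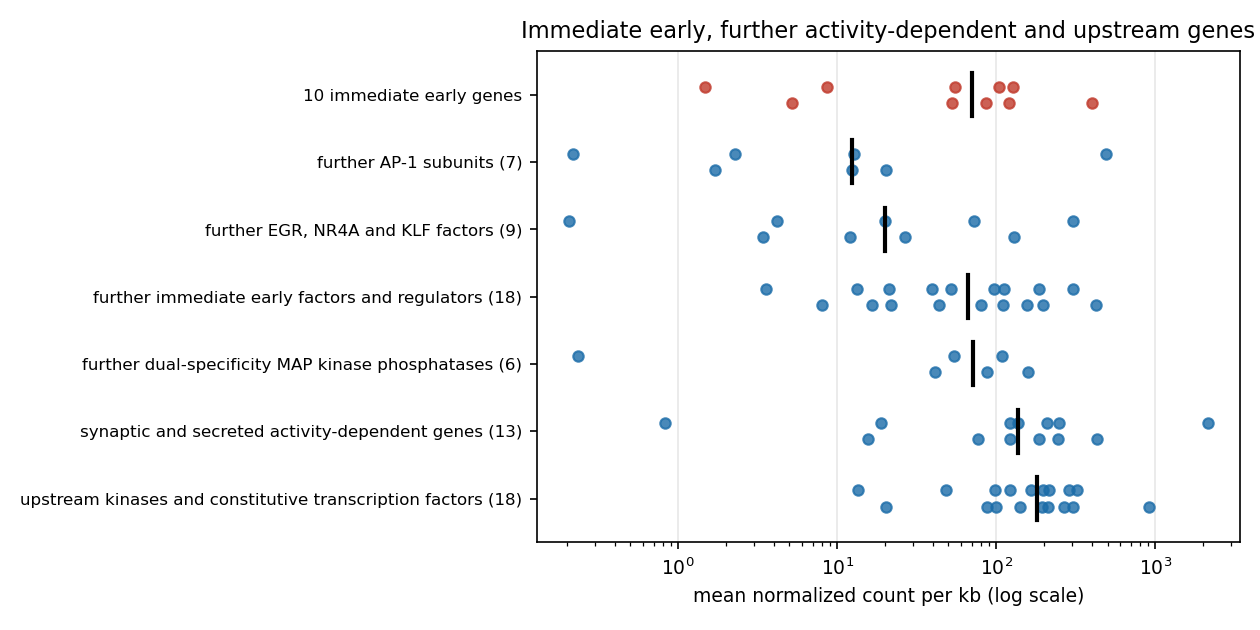
Mean normalized count per kilobase (log axis) of the 10 immediate early genes (red) and of the further lists (blue), with 1 point per gene that has a length, the number of such genes in brackets, and a black line at the median. The medians were 70.4 for the 10 genes, 12.3 for further AP-1 subunits, 20.1 for further EGR, NR4A and KLF factors, 66.4 for further immediate early factors and regulators, 71.0 for further dual-specificity phosphatases, 136 for synaptic and secreted genes and 179 for upstream genes.

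The members had few exons. Jun, Junb and Ier2 have a single exon, which was the case for 3 of 10 members against 3.04% of genes at a mean normalized count of 10 or more. The median number of exons was 3 against 9, and no member had more than the 7 of Nr4a1, a limit that 43.4% of those genes also kept. Median transcript length differed less, at 2757 against 3066 bases.

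Promoter sequence was compared for the 6 members with an entry in the RefSeq promoter table (assembly GRCm38.p6), which were Dusp1, Fos, Fosb, Jun, Junb and Nr4a1. The 250 bases before the start were searched on both strands. The core of the cAMP response element, TGACG, to which CREB and ATF proteins bind, was found in 5 of the 6, all but Jun, against 17.8% of all promoters and 26.0% of those of genes at a mean normalized count of 10 or more. The 6 windows were richer in G and C, at 58.4% (Fos) to 74.4% (Nr4a1), than the median of all promoters, at 52.4%. Promoters of equal G and C content were not compared, so the part of base content in this share was not tested. Nr4a1 held 4 matches, Dusp1 3 and Fos 2. The full palindrome TGACGTCA, which contains the core on both strands, was found in Dusp1 and holds 2 of the 3 matches counted there. It was found in 1.55% of all promoters and 2.7% of those of genes at 10 or more. The stretches with more than 1 match of the core are given here 5′ to 3′ on the strand of the gene, with matches of the core (TGACG, or CGTCA on the other strand), of the palindrome and of the TATA box in capitals.
Fos, chr12:85473640-85473889, plus strand: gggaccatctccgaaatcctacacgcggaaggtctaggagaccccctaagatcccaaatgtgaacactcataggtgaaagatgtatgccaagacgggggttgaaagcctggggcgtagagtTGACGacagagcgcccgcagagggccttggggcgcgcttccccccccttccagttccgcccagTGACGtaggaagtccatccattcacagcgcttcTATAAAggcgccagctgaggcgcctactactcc
Nr4a1, chr15:101266596-101266845, plus strand: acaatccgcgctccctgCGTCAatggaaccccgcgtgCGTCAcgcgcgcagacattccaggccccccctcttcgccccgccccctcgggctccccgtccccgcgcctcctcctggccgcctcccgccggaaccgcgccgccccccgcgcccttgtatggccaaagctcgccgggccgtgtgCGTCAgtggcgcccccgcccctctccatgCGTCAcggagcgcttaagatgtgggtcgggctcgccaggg
Dusp1, chr17:26508473-26508722, minus strand: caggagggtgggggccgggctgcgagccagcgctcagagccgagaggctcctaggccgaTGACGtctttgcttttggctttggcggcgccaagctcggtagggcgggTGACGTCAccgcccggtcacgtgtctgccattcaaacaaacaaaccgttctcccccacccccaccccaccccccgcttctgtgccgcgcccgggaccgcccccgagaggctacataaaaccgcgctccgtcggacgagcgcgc

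In Fos the match nearest to the start began 66 bases before it, and a TATA box, TATAAA, began at base 33. TATAAA was found in 1 of the 6 member promoters, against 12.4% of all and 6.38% of those of genes at a mean normalized count of 10 or more. In Nr4a1 the matches on the other strand began 233, 213, 69 and 40 bases before the start. CCAAT was found in Jun and Junb, against 33.8% of all promoters and 35% of those of genes at 10 or more. A CArG box, the binding sequence of SRF, the AP-1 sites TGACTCA and TGAGTCA, and the EGR site GCGTGGGCG were each found in 0 of the 6, against 1.47%, 4.46% and 0.536% of all promoters. Only exact matches within the window before the start were counted. Sites further upstream, or with letters that differ from the motif, would be missed, so their absence from these genes was not tested. Letters that match a motif are a description of the window and not a measurement of binding.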

How the data were processed

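The reads of retinal libraries from 8 flight and 8 ground control mice were trimmed by the authors with Trimmomatic, mapped with TopHat2 to an earlier mouse assembly than GRCm38.p6, and counted per RefSeq gene model with HTSeq. The deposited signal used here is the mean normalized count per gene, which the authors obtained by dividing counts by the size factors of DESeq2 (version 1.22.2, in R 3.5.1, per the labels) and averaging over all libraries. The same tables also hold the authors' own comparison (log2 fold-change, its standard error, Wald statistic and p-values), which was not used. The 32 columns of counts per library in 2 tables carry codes that match no label and were not used, so the planned edgeR test on counts was not run and the depth per library is not analysed here.

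Members and lists were chosen with earlier results of these data known. Named are all 10 members and, from each further list, the 3 genes with the highest level per kilobase. Other genes named were chosen after their values were seen. Transcript lengths and exon numbers came from the GENCODE transcript paired with the RefSeq accession under which the gene was counted, which gave a length for 10 members and 83.0% of genes at a mean normalized count of 10 or more. Percentiles are the percent of those genes with a lower value. No coordinate of the authors' mapping was used. The percentile calculation and the motif search were tested on simulated data, and the other steps were not. All steps ran in Python 3.11.15 (pandas 2.3.3, numpy 2.4.6, matplotlib 3.10.9). Values of some marker genes are not reported here.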

Additional observations from a re-analysis of the deposited data

How the results depend on the processing

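The median percentile of the 10 genes was 43.2 per gene, 47.8 per kilobase and 64.2 when set against all 19667 genes above 0. Per kilobase it was 33.6 with the shortest annotated protein-coding transcript of each gene and 51.9 with the longest. The genes ranked against changed as well, since these lengths were taken by gene symbol, also for genes with several gene models. The parts of length and of gene set in this shift were not tested. With the longest transcripts, 10 of the 10 genes kept their rank. With the shortest, 6 kept it, and Nr4a1, at 923 per kilobase of a transcript of only 344 bases, ranked above Egr1. Fosb was then at 29.9 and Egr3, still the lowest, at 3.87. No paired analysis was possible because the count columns carry no mouse number. The labels use the same mouse numbers in both groups, but flight and ground control mice were different animals. The study's methods describe no pairs between them. The alternatives that needed counts per library (DESeq2, another normalization, no filter, another threshold, a block on mouse number) were not run. The lack of counts per library also limits precision, since no spread between mice or libraries can be set beside a level, least of all for Arc and Egr3 at the lowest levels.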

Other observations

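The number of RefSeq gene models under which a gene was counted went with its level. A symbol with 1 model had a median mean normalized count of 12.9 (22086 symbols), and 51.7% of them reached 10. A symbol with several models had a median of 0.806 (3794 symbols), and 24.6% reached 10. All 10 members were counted under 1 model. Among the further genes, 64 of 71 with 1 model reached 10, against 5 of 14 with several. Creb1, with 3 models, was at a mean normalized count of 1.35, Bdnf, with 4, at 5.72, Homer1, with 3, at 21.2, Per1, with 2, at 1.72, and Crem, with 11, at 0.0579, while Myc, with 4, is listed at 0. Of the marker genes counted under several models, Rlbp1 of Müller glia (2 models) was at 1.39, Rbpms of ganglion cells (3) at 5.53, Pecam1 of endothelium (2) at 0.446 and Alas2 of red blood cells (2) at 0. Others were higher, with Nrl of rods (2) at 88.9 and Trpm1 of bipolar cells (2) at 2866. How reads shared by models of 1 gene were treated is not given in the sources used here, and its part in these levels was not tested.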
